A study of Mus musculus with 4 samples.

Results

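The genes described here are 41 genes that drive or mark the cell division cycle, out of 21763 genes with a named probe on the array. They were chosen by name, with earlier results of these data known. By role they were sorted into 9 genes of S phase, 28 genes of mitosis, 2 D-type cyclins and 2 inhibitors of cyclin-dependent kinases. Each gene was read from its brightest probe by mean processed signal, and all 41 genes had a probe. Hearts of male mice were taken 2 or 8 weeks after a sham operation or after transverse aortic constriction (TAC), which narrows the aorta and loads the left ventricle with pressure. The 4 groups, sham and TAC at 2 weeks and sham and TAC at 8 weeks, were each measured on 1 single-colour Agilent array of RNA pooled from 4 to 6 mice. The methods name the C57BL/6J strain and surgery at 12 weeks of age, whereas the labels give an age of 10 weeks for both 2-week pools and 16 weeks for both 8-week pools. The labels give no genotype or drug, and by them the 4 groups differ only in operation, time and age.

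A cell that enters the cycle first makes D-type cyclins, which release E2F factors from the retinoblastoma protein. E2F factors then raise the genes that copy DNA in S phase, and genes of the G2 phase and mitosis follow later in the same cycle, many of them through the CHR element bound by the DREAM and MuvB complexes. The inhibitors p21, from Cdkn1a, and p16, from Cdkn2a, hold the cyclin-dependent kinases back, while the other product of Cdkn2a, p19ARF, stabilises p53. Adult cardiomyocytes seldom divide, while fibroblasts, endothelial cells and leukocytes of the heart can.

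Levels below are signals divided by the 75th percentile of the same array, so that a level of 1 equals that percentile. A difference is TAC minus sham on the log2 scale, and a fold is TAC over sham. A probe counted as well above background on an array when over 50% of its spots carried that flag of the scanner software. A gene was called higher when the TAC array showed its probe well above background with a fold above 2, or with a lower bound above 2 where the sham spot was not well above background. Levels of different probes cannot be ranked against each other. With 1 array a group there is no replicate and no test. The error at hand is that of spots on 1 array. Over probes with 10 spots, 2 spots of 1 probe differed in log2 signal with an SD of 0.115 where the level was at least 0.25, of 0.318 below that level, and of 0.615 where the probe was not well above background. All 4 arrays came from the same slide and the same scan, so neither could be tested as a batch, and the spread between mice was not measured. The 75th percentile lay between 206 and 248 signal units, 54.7% to 58.5% of probes were well above background, and no spot was saturated. The labelled tissue is heart, and all 8 cardiomyocyte markers were well above background on all 4 arrays. In such whole-heart RNA, more cells of a dividing type and more RNA per cell cannot be told apart.

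Of the 28 mitosis genes 5 were called higher over 2-fold at 2 weeks and 16 at 8 weeks, while of the 9 S phase genes 0 and 1 were. Ccna2, a cyclin of both S phase and G2, was counted with the mitosis genes and was called at both times, so these counts depend on its placement. Of the mitosis genes 5 had a lower level after TAC at 2 weeks and 3 at 8 weeks, most of them from probes not well above background. At 2 weeks 6 of the 41 genes were called higher over 2-fold, against 0.873% of all genes, and 1 gene, Cdk1, was called lower, against 0.699%. At 8 weeks 18 were called higher, against 1.76%, and 0 lower, against 1.06%. All 6 genes called higher at 2 weeks (Top2a, Ccna2, Ccnb1, Cdca3, Prc1 and Cdkn1a) were called again at 8 weeks. Over all genes 190 were called higher at 2 weeks, and 90, or 0.414% of all genes, at both times. With a threshold of 1.5-fold the counts were 20 at 2 weeks and 23 at 8 weeks, against 3.6% and 4.52% of all genes. With no threshold, 34 of the 41 genes had a higher level after TAC at 2 weeks and 36 at 8 weeks, where 42.9% and 39.8% of all genes did. The counts at 2 weeks stood close to the threshold. Ube2c lay just under it at 1.94-fold and Cdca3 just above it at 2.07-fold, and 14 genes lay between 1.5- and 2-fold, lower bounds included. At 8 weeks Plk1 lay just under it at 1.92-fold, Cdc20 just above it at 2.08-fold, and 5 genes lay in that range. Normexp background correction with an offset of 50, which draws dim signals together by its construction, brought the counts of genes called higher down to 1 at 2 weeks and 6 at 8 weeks.

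**Figure D1:**
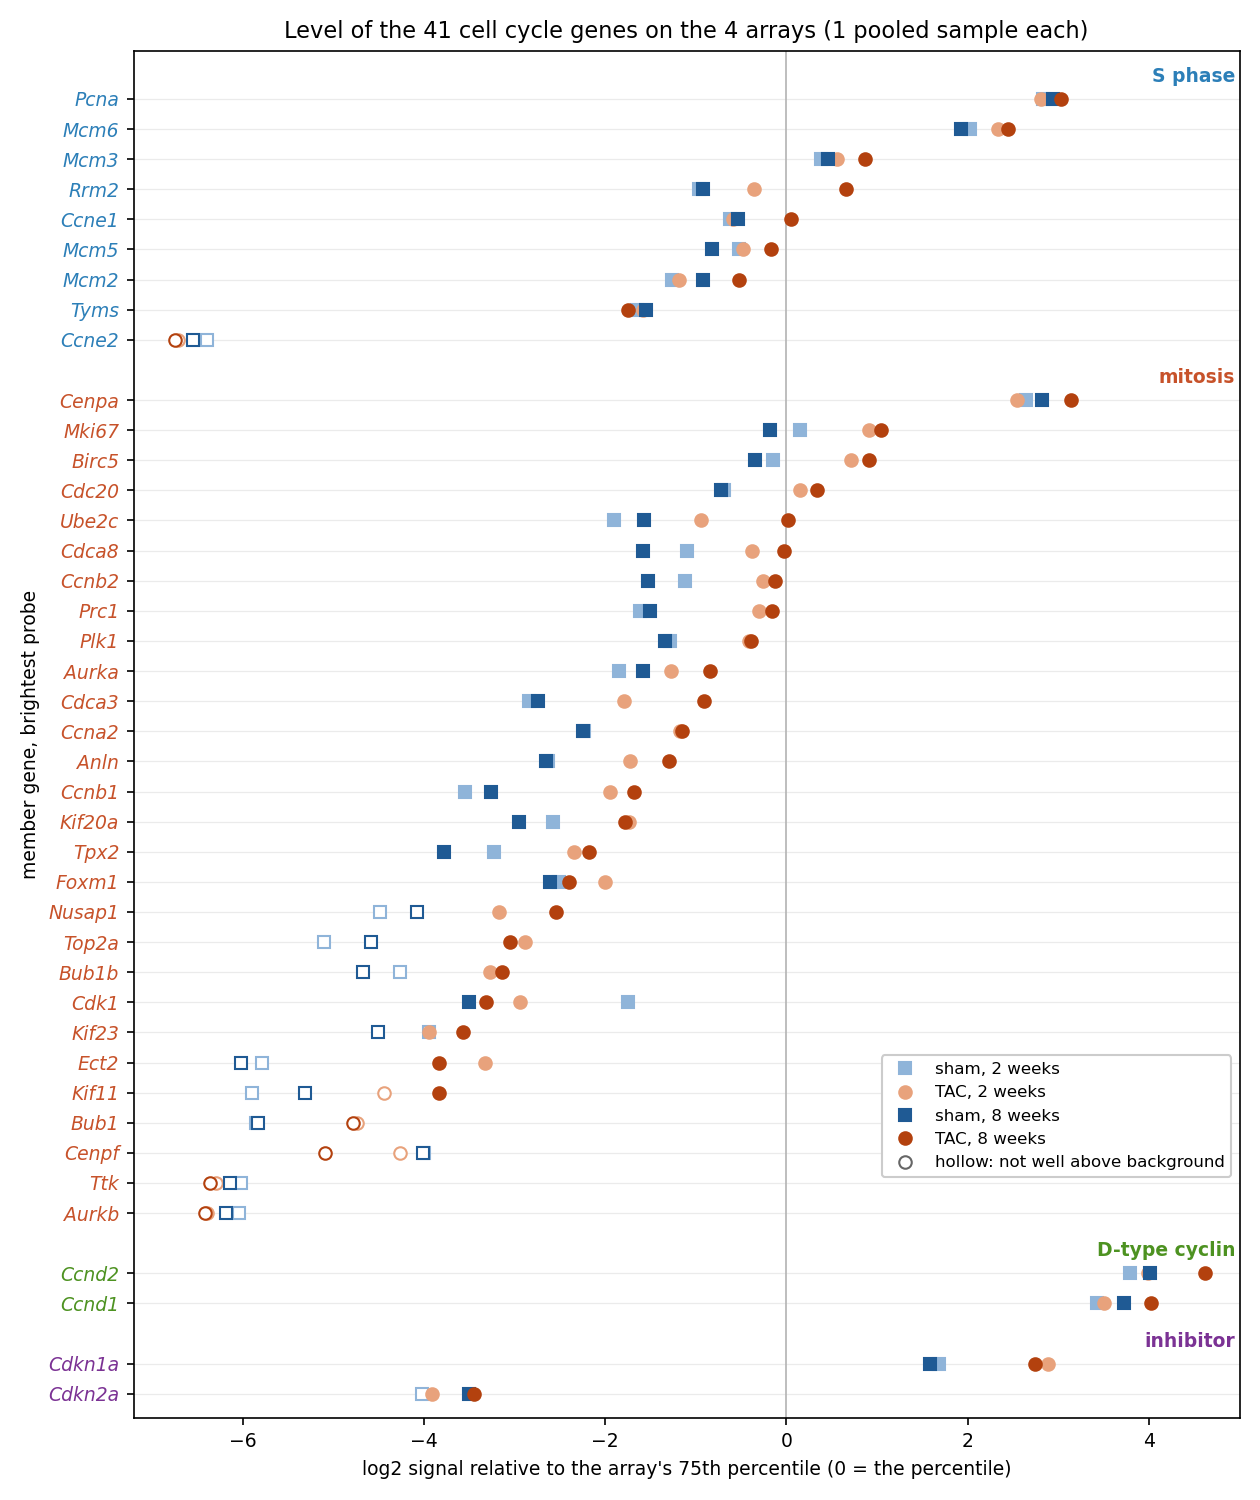
Level of each gene on the 4 arrays, on a log2 axis where 0 is the 75th percentile of the array; squares are sham pools, circles TAC pools, pale colours 2 weeks and dark colours 8 weeks. For most mitosis genes both circles lie to the right of both squares, while for Pcna, Tyms and Ccnd1 the 4 symbols overlap or interleave, and Ccne2, Bub1, Cenpf, Ttk and Aurkb are hollow on all 4 arrays (not well above background).

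The nearest measure of how far pools differ without TAC is the pair of sham arrays, which also differ in age. Between them 0 of the 41 genes were called higher at 8 weeks, where 0.57% of all genes were, and 1 was called lower, again Cdk1, where 0.524% of all genes were. The sham pair shares its arrays with both TAC comparisons, so its values are given only side by side. Over the 28 mitosis genes the median log2 difference between the sham pools was -0.04, beside 0.87 for TAC minus sham at 2 weeks and 1.24 at 8 weeks. Among the 17 mitosis genes other than Cdk1 that were well above background on all 4 arrays, the sham difference ran from -0.55 to 0.33. The TAC difference ran from -0.10 to 1.61 at 2 weeks and from 0.21 to 1.83 at 8 weeks. Over all genes the median was -0.05 at 2 weeks and -0.08 at 8 weeks.

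**Figure D2:**
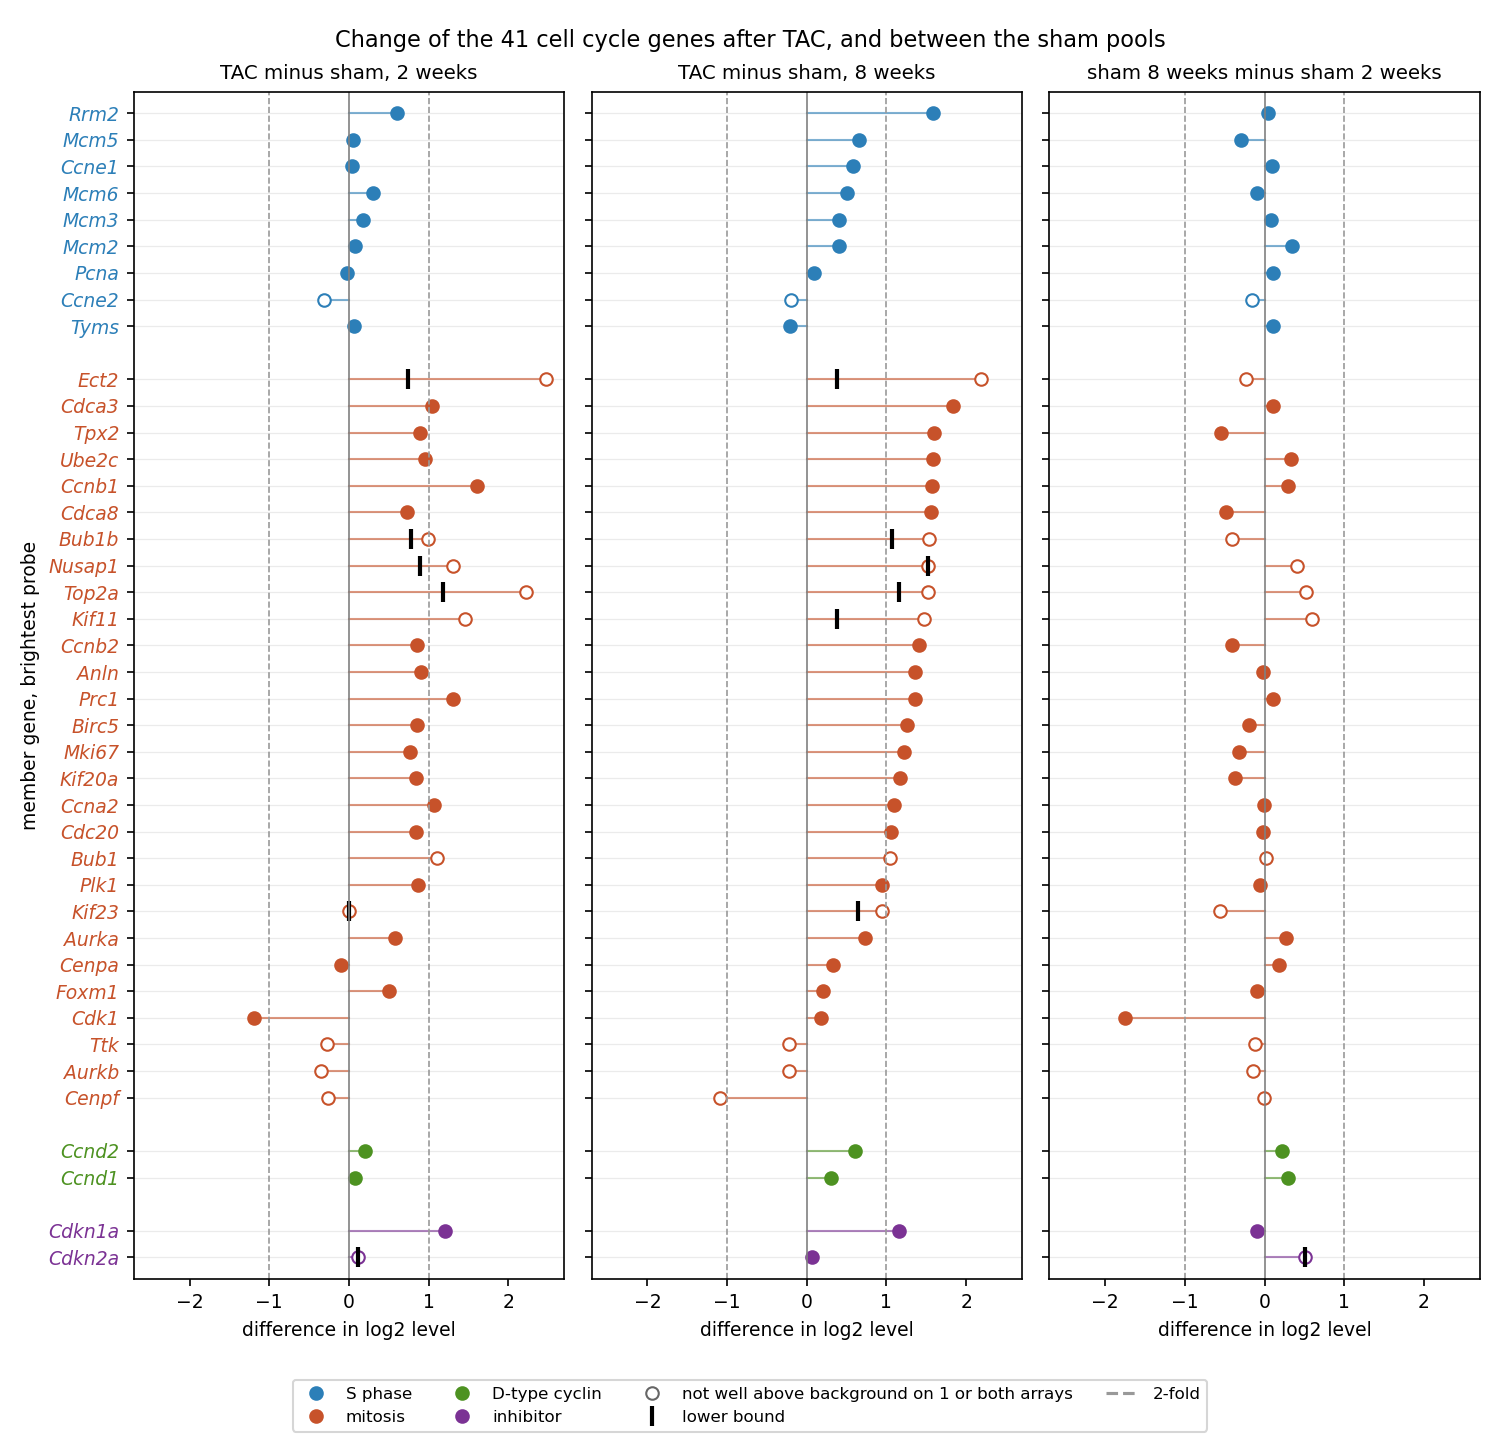
Difference in log2 level for each gene at 2 weeks, at 8 weeks and between the sham pools; hollow symbols were not well above background on 1 or both arrays, black ticks are lower bounds and dashed lines mark 2-fold. The mitosis genes fill the right side of the first and second panels and scatter around 0 in the third, where Cdk1 at -1.76 is the only gene past a dashed line.

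Of the S phase genes, only Rrm2 was called higher, at 8 weeks, and the largest fold among the others was 1.57, for Mcm5 at 8 weeks. Rrm2 encodes the inducible small subunit of ribonucleotide reductase, which makes the deoxynucleotides for DNA synthesis. Its level was 0.512 in sham and 0.779 in TAC hearts at 2 weeks, and 0.526 and 1.57 at 8 weeks. The sham arrays lay close together, and the fold was 1.52 at 2 weeks and 2.99 at 8 weeks. The Mcm genes encode subunits of the replicative helicase. Mcm6 had levels of 4.08 (sham) and 5.03 (TAC) at 2 weeks and 3.81 and 5.42 at 8 weeks, folds of 1.23 and 1.42. Mcm5 had levels of 0.696 and 0.719 at 2 weeks and 0.564 and 0.889 at 8 weeks, so that its difference from sham was 0.05 at the earlier time and 0.66 at the later one. For Mcm3 they were 1.30 and 1.47 at 2 weeks and 1.37 and 1.82 at 8 weeks. In these 3 genes both TAC arrays lay above both sham arrays. The Mcm2 levels of 0.417 and 0.439 at 2 weeks and 0.527 and 0.697 at 8 weeks interleave, since the later sham array exceeded the earlier TAC array. Ccne1, the cyclin that starts S phase with Cdk2, was level at 2 weeks (0.649 in sham, 0.665 in TAC) and stood at 0.693 and 1.03 at 8 weeks, a 1.49-fold difference.

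Pcna and Tyms lay close to their sham levels. Pcna, the sliding clamp of DNA polymerase, had levels of 7.13 and 6.98 at 2 weeks and 7.69 and 8.18 at 8 weeks. Tyms, which makes thymidylate, had levels of 0.319 and 0.334 at 2 weeks and 0.343 and 0.297 at 8 weeks, so that its 8-week difference of -0.20 was the only one below 0 among the 8 S phase genes well above background on all arrays. Ccne2, the other E-type cyclin, was not well above background on any array, with levels from 0.00933 to 0.0119. Over all 9 genes the median difference was 0.06 at 2 weeks and 0.41 at 8 weeks, and 7 of 9 were higher at each time. Both TAC arrays exceeded both sham arrays for 4 of the 8 measured genes (Rrm2, Mcm3, Mcm5 and Mcm6), where 23.8% of all genes well above background on all 4 arrays showed that order.

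The promoter windows of Mcm3, Mcm5 and Mcm6, though not that of Mcm2, held letters of the class that E2F factors are known for, and a pair of them is printed to set against the mitosis promoters further on. The windows run from 250 bases before to 50 bases after the annotated start, from RefSeq on GRCm38.p6, and are written on the strand of the gene. Mcm6 lies at chr1:128359656-128359955 (minus strand) and Mcm5 at chr8:75109259-75109558 (plus strand). Capitals mark E2F-type matches, that is TTTCCCGC, TTTGGCGC or GGCGGGAA on either strand. The reverse complement of GGCGGGAA overlaps TTTCCCGC, so 1 stretch can match both.
Mcm6: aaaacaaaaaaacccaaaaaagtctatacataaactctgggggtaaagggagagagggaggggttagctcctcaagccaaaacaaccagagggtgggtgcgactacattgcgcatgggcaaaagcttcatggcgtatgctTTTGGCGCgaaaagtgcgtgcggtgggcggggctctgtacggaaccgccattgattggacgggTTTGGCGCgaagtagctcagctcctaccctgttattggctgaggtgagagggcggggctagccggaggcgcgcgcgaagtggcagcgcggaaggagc
Mcm5: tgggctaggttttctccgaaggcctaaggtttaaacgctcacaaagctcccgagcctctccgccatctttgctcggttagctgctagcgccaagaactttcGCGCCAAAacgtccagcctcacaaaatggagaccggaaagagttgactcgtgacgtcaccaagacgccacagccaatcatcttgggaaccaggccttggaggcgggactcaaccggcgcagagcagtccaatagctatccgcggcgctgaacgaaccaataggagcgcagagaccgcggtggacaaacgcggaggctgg
E2F-type letters were found in the windows of 3 of the 8 S phase genes that have a window (Mcm3, Mcm5 and Mcm6), in 0 of 23 mitosis genes and in 3.69% of the 27025 genes of the promoter table. A match describes letters only.

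The mitosis genes gave most of the calls, 5 at 2 weeks and 16 at 8 weeks of 28 genes, and 18 and 19 of them passed 1.5-fold. Of these 28 genes 18 were well above background on all 4 arrays, 6 on some arrays and 4 on none. Both TAC arrays lay above both sham arrays for 23 of 28, dim probes included, where 4115 of all 21763 genes showed that order. The 23 include Bub1, whose probe was not well above background on any array. Among the 18 measured on all arrays 16 showed it, against the 23.8% given above. The exceptions among the 18 were Cdk1 and Cenpa. When genes not well above background in sham are entered at their lower bound, the medians of all 28 become 0.85 at 2 weeks and 1.08 at 8 weeks.

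Their promoters share letters that played no part in the choice of the genes. CHR-type letters are TTTGAA (or TTCGAA, which reads the same on both strands), and CCAAT is the box bound by NF-Y. Mitosis genes with both motifs, well above background on all arrays, were ranked by the smaller of their differences at 2 and 8 weeks. The windows of 3 genes from the top of that ranking are printed, and Ube2c, which ranked between Cdca3 and Plk1, is left out. All 3 hold TTTGAA near the start with CCAAT upstream. In the Ube2c window the match reads TTCAAA, so it lies on the other strand, 29 bases before the start and also with CCAAT upstream. They are Prc1 at chr7:80294201-80294500, Cdca3 at chr6:124829926-124830225 and Plk1 at chr7:122159185-122159484, all on the plus strand of GRCm38.p6, with both motifs in capitals on either strand.
Prc1: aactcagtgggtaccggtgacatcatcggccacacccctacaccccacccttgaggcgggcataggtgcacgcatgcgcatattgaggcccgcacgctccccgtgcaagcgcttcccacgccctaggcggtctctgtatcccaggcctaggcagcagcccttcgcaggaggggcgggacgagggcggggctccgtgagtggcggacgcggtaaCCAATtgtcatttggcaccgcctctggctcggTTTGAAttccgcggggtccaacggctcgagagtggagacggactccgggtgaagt
Cdca3: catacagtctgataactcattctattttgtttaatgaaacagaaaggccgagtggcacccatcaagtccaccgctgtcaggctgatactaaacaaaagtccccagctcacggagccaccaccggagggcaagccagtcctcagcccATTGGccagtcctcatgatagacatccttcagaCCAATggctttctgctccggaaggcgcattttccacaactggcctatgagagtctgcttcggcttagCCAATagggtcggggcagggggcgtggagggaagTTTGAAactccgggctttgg
Plk1: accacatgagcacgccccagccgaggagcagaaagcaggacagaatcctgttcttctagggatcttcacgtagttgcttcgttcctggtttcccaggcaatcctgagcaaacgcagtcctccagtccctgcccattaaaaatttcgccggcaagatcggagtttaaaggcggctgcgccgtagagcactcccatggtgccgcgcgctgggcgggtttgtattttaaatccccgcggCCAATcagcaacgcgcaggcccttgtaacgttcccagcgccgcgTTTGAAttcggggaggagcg
Of the 23 mitosis genes with a window, 20 held a CHR-type match, 20 held CCAAT and 19 held both. Over all 27025 genes of the table these shares were 21.7%, 41.1% and 8.61%. Among the 8 S phase genes with a window 1 held a CHR-type match (Mcm2), 6 held CCAAT and 1 held both, so CCAAT was common in both classes. The match nearest the start lay between 98 bases before and 40 bases after it in all 20 mitosis genes. Of all genes with a match, 45.6% had it within 100 bases before to 50 after the start. Cdca3 and Plk1 both had theirs 30 bases after the start, and Prc1 had it 5 bases before. These motifs are also held by many genes other than the 41. Outside the 41, 743 genes with both motifs were well above background on all arrays, and other genes of the cycle are among them. Their median difference was -0.00 at 2 weeks and -0.01 at 8 weeks. Of them 1.48% and 2.02% exceeded 2-fold, against 0.772% and 1.53% of 10360 genes without both. Windows were at hand for 33 of the 41 genes.

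**Figure D3:**
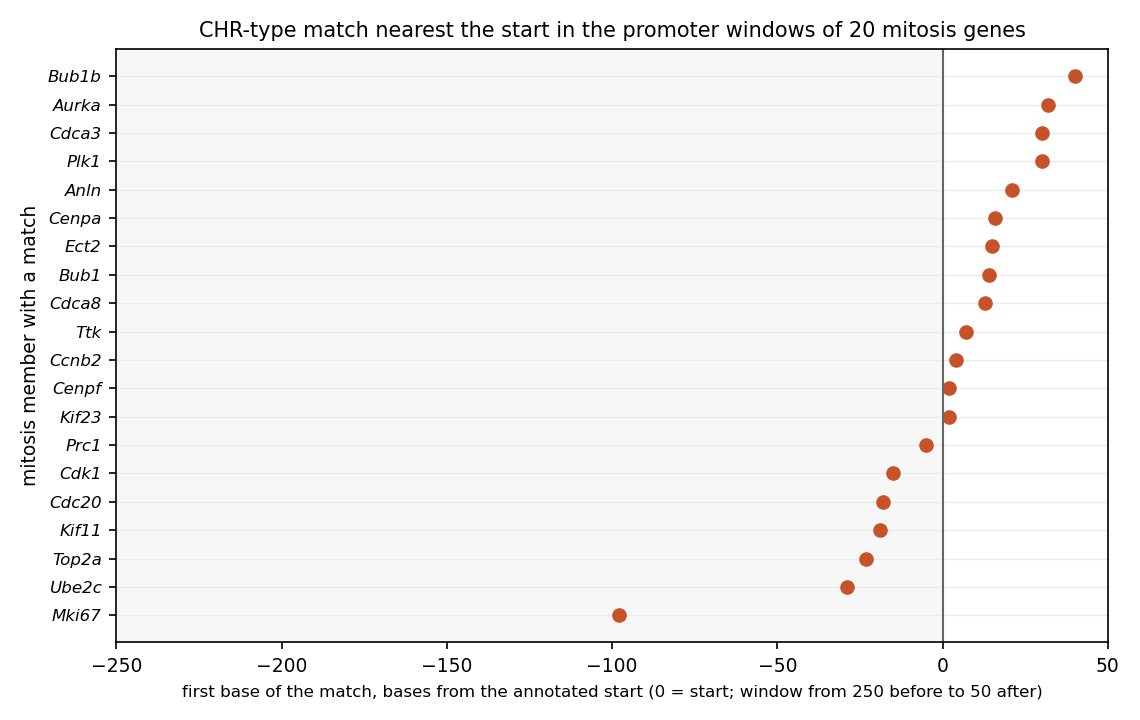
Position of the CHR-type match nearest the annotated start in the 20 mitosis genes that hold one, in bases from the start, over the whole window from 250 before to 50 after. All points but that of Mki67 (98 bases before) lie between 29 bases before and 40 bases after the start.

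Among the mitotic cyclins and kinases, the cyclins were called at both times or at 8 weeks, the Aurora and Polo kinases stayed under 2-fold, and Cdk1 depended on the probe. Ccnb1, the cyclin B that turns Cdk1 into the mitotic kinase, had levels of 0.0853 in sham and 0.260 in TAC hearts at 2 weeks and 0.105 and 0.312 at 8 weeks, folds of 3.05 and 2.98. Under normexp its differences were 0.53 and 0.55, short of 2-fold. Its second brightest probe was well above background on the 8-week TAC array only, with a bound of 1.05-fold there and no change read at 2 weeks. Ccna2, the cyclin of S phase and G2, had levels of 0.212 and 0.444 at 2 weeks and 0.210 and 0.449 at 8 weeks. Its sham arrays and its TAC arrays were each nearly level, and the folds were 2.09 and 2.14. Ccnb2 had levels of 0.461 and 0.833 at 2 weeks and 0.346 and 0.914 at 8 weeks, so that the larger 8-week fold of 2.64 came with a lower sham level as well as a higher TAC level.

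Plk1, which drives entry into and exit from mitosis, had levels of 0.412 and 0.754 at 2 weeks and 0.396 and 0.760 at 8 weeks, folds of 1.83 and 1.92. Aurka, the kinase of the spindle poles, had levels of 0.277 and 0.413 at 2 weeks and 0.334 and 0.555 at 8 weeks, folds of 1.49 and 1.66. In both genes the TAC arrays lay above the sham arrays without reaching 2-fold. Foxm1, a transcription factor of G2 and M phase genes, had levels of 0.176, 0.249, 0.164 and 0.189 on the sham 2-week, TAC 2-week, sham 8-week and TAC 8-week arrays. Its difference of 0.51 at 2 weeks was larger than that of 0.21 at 8 weeks, against the order seen in most of the others.

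Cdk1, the kinase that these cyclins activate, has 3 probes, and they did not run together. Its brightest probe read 0.299 in sham and 0.130 in TAC hearts at 2 weeks, and 0.0883 and 0.100 at 8 weeks. The sham 2-week array stands above the other 3 arrays, and both the 2.29-fold lower level at 2 weeks and the lower level of the 8-week sham pool rest on it. The second probe read 0.0695 and 0.179 at 2 weeks, a 2.57-fold higher level after TAC. At 8 weeks it read 0.0531 in sham, not well above background, and 0.249 in TAC, at least 4.62-fold higher. The third probe was not well above background on any array. All 3 probes are listed with the same RefSeq transcript, and no direction is given for Cdk1.

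Of 4 genes that act on spindle microtubules, Prc1 was called at both times and Tpx2, Kif20a and Nusap1 at 8 weeks. The motors Kif11 and Kif23, given further on, also act on the spindle and were called at neither time. Prc1, which bundles microtubules at the spindle midzone, had levels of 0.326 and 0.808 at 2 weeks and 0.352 and 0.898 at 8 weeks, folds of 2.48 and 2.55. Tpx2, which activates Aurka on the spindle, had levels of 0.107 and 0.198 at 2 weeks and 0.0729 and 0.221 at 8 weeks, folds of 1.85 and 3.03. A second Tpx2 probe, also well above background on all arrays, differed by 0.52 and 0.48, so the larger 8-week change was read from only 1 of its probes. Kif20a, a kinesin of the midzone, had levels of 0.167 and 0.30 at 2 weeks and 0.130 and 0.292 at 8 weeks, folds of 1.79 and 2.25. Nusap1, a microtubule-binding protein, was well above background on the TAC arrays only (0.111 at 2 weeks, 0.171 at 8 weeks). Its bound was 1.86-fold at 2 weeks. At 8 weeks its dim sham level of 0.0595 lay above the lowest level well above background on that array, 0.0540. The 2.88-fold there is therefore a plain ratio to a dim spot.

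In the chromosomal passenger complex, which corrects faulty attachments of chromosomes, Birc5 (survivin) and Cdca8 (borealin) gave like values. Birc5 had levels of 0.905 and 1.64 at 2 weeks and 0.787 and 1.88 at 8 weeks, folds of 1.82 and 2.38. Cdca8 had levels of 0.466 and 0.770 at 2 weeks and 0.333 and 0.979 at 8 weeks, folds of 1.65 and 2.94. Both genes had their lowest level in the 8-week sham pool and their highest in the 8-week TAC pool. The kinase of that complex, Aurkb, was not well above background on any array. Bub1b, the spindle checkpoint protein BubR1, was well above background on the TAC arrays only, at 0.103 and 0.114, at least 1.72-fold above sham at 2 weeks and at least 2.10-fold at 8 weeks.

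The genes that end mitosis by protein breakdown differed more at 8 weeks. Ube2c, the ubiquitin-conjugating enzyme of the anaphase-promoting complex, had levels of 0.268 and 0.521 at 2 weeks and 0.337 and 1.01 at 8 weeks, folds of 1.94 and 3.003. Its second probe gave differences of 1.04 and 1.85, so that at 2 weeks the 2 probes lie on either side of 2-fold. Cdc20, the activator of that complex, had levels of 0.619 and 1.11 at 2 weeks and 0.608 and 1.26 at 8 weeks, folds of 1.80 and 2.08. Cdca3, a trigger of mitotic entry whose promoter is printed above, had levels of 0.139 and 0.288 at 2 weeks and 0.149 and 0.531 at 8 weeks, folds of 2.07 and 3.55. Among the brightest probes well above background on all 4 arrays, Cdca3 had the largest 8-week fold, and the second Ube2c probe exceeded it.

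Mki67, the Ki-67 antigen used to mark cycling cells, had levels of 1.11 in sham and 1.88 in TAC hearts at 2 weeks and 0.881 and 2.06 at 8 weeks, folds of 1.70 and 2.34. Its second probe, also measured on all arrays, gave differences of 0.89 and 1.15, beside 0.77 and 1.23 for the brightest. Top2a, the topoisomerase that untangles chromosomes, was well above background on the TAC arrays only, at 0.136 and 0.120, at least 2.26-fold and at least 2.23-fold above sham. Anln, the anillin of the cleavage furrow, had levels of 0.161 and 0.302 at 2 weeks and 0.159 and 0.407 at 8 weeks, folds of 1.87 and 2.56. These 3 genes showed the same order as the cyclins, with both sham arrays below both TAC arrays.

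The remaining mitosis genes gave bounds under 2-fold, no measured level or, for Cenpa, measured folds of 0.932 and 1.25. Ect2, the exchange factor that sets off cytokinesis, was well above background on the TAC arrays only, at 0.100 and 0.0703, with bounds of 1.67-fold and 1.30-fold. Kif23, a motor of the midbody, had a bound of 1.001-fold at 2 weeks and 1.56-fold at 8 weeks, and Kif11, a motor that separates spindle poles, was measured only on the 8-week TAC array, with a bound of 1.30-fold. Cenpa, the histone of the centromere, had levels of 6.23 and 5.81 at 2 weeks and 7.04 and 8.84 at 8 weeks, so that sham and TAC arrays overlapped. Bub1, Ttk, Aurkb and Cenpf, which act at kinetochores and centromeres, were not well above background on any array. Their differences, which lay between -1.08 and 1.11, are not read as changes.

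**Figure D4:**
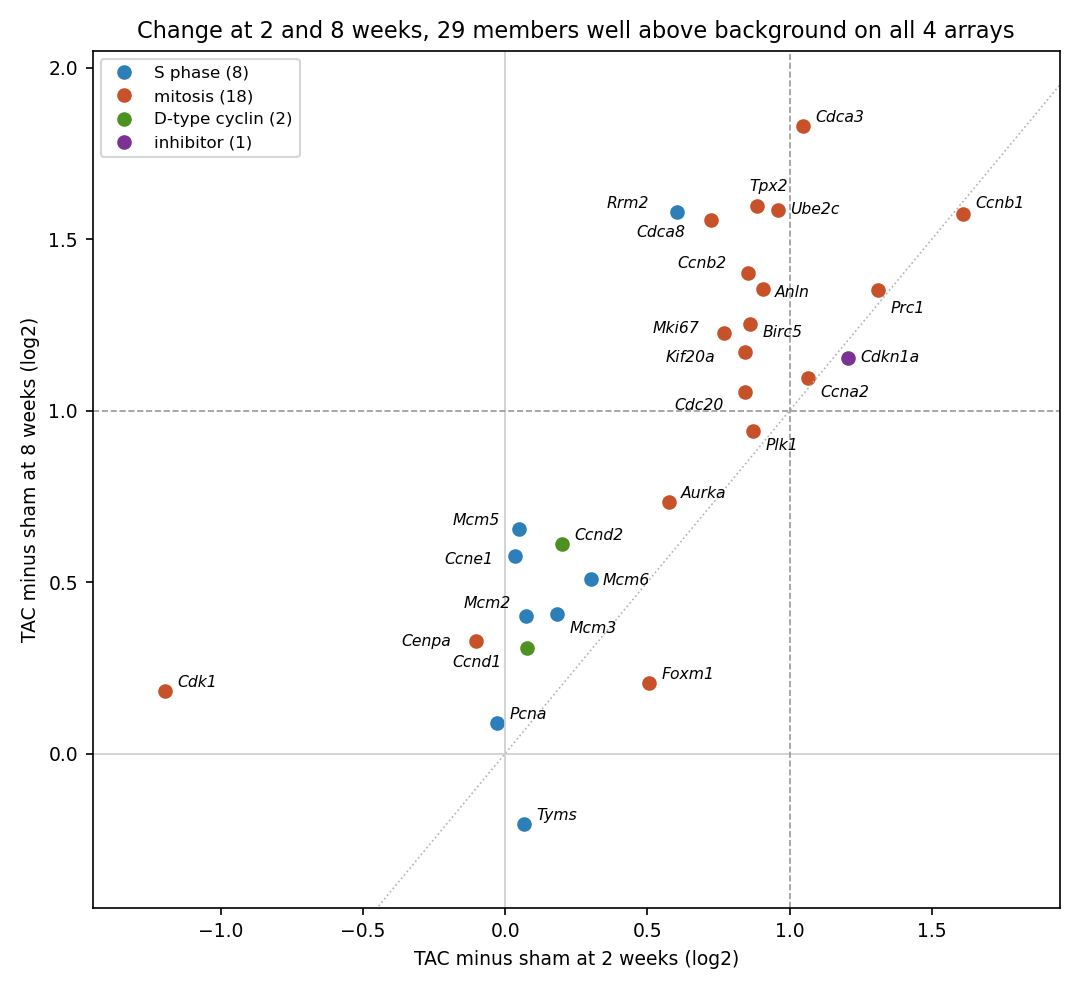
Difference from sham at 8 weeks against that at 2 weeks for the 29 genes well above background on all 4 arrays, both axes in log2; dashed lines mark 2-fold and the dotted line equal differences. Of these genes 25 lie above the dotted line, with S phase genes in the lower middle, mitosis genes mostly in the upper right, and Cdk1 apart on the left.

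For most of the genes the difference was larger at 8 weeks. Of the 29 genes well above background on all 4 arrays, 25 had a larger difference at 8 weeks than at 2 weeks, where 51.3% of all such genes did. They were 16 of 18 mitosis genes, 7 of 8 S phase genes and both D-type cyclins. The exceptions were Ccnb1, Foxm1, Tyms and Cdkn1a. The median shift was 0.41 for the measured mitosis genes and 0.28 for the measured S phase genes. Across the 29 genes the differences at the 2 times had a Pearson r of 0.785 and a Spearman rho of 0.792, as a description across genes that are not independent. With 1 pool at each time the shift between times was not tested, and the age of the mice moves with it.

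The D-type cyclins, which link growth signals to the cycle, were bright on every array and differed little from sham at 2 weeks. Ccnd1 had levels of 10.8 and 11.4 at 2 weeks and 13.2 and 16.3 at 8 weeks, folds of 1.05 and 1.24. Ccnd2 had levels of 13.9 and 15.9 at 2 weeks and 16.1 and 24.6 at 8 weeks, folds of 1.15 and 1.53. In both genes the 8-week sham array lay above the 2-week TAC array, so sham and TAC overlapped.

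The inhibitor Cdkn1a was called higher at both times and by nearly the same amount. Its level was 3.21 in sham and 7.41 in TAC hearts at 2 weeks, and 2.997 and 6.67 at 8 weeks, folds of 2.31 and 2.22. The brightest probe has 10 spots on each array, and all TAC spots lay above all sham spots. Over the 10 spots the log2 difference was 1.21 ± 0.06 (SD) at 2 weeks, from 1.12 to 1.30, and 1.15 ± 0.04 at 8 weeks, from 1.08 to 1.19. These errors are those of spots on an array and leave out the spread between hearts. Of the other probes of Cdkn1a, 1 was well above background on all arrays and differed by 0.62 and 0.70. It is listed with an Ensembl transcript of the gene. The third probe, listed with a RefSeq transcript, was dim in the 2-week sham pool, with a bound of 1.34-fold there. At 8 weeks it was measured on both arrays, at 1.44-fold. Only the brightest probe passed 2-fold, so the size of the difference depends on the probe while its direction did not.

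Cdkn2a, the other inhibitor, showed no such difference. Its brightest probe had levels of 0.0617, not well above background, and 0.0666 at 2 weeks and 0.0880 and 0.0919 at 8 weeks, with a bound of 1.08-fold and a fold of 1.04. The 8-week arrays lay above the 2-week arrays whatever the operation. The second Cdkn2a probe was not well above background on any array. Spots of the Bub1 probe, at lower levels of 0.0174 to 0.0375, show the spread where a probe is not well above background. Its 10 spots differed by 1.11 ± 0.74 at 2 weeks and by 1.04 ± 1.07 at 8 weeks, with 2 of 10 TAC spots and 0 of 10 sham spots well above background at either time.

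**Figure D5:**
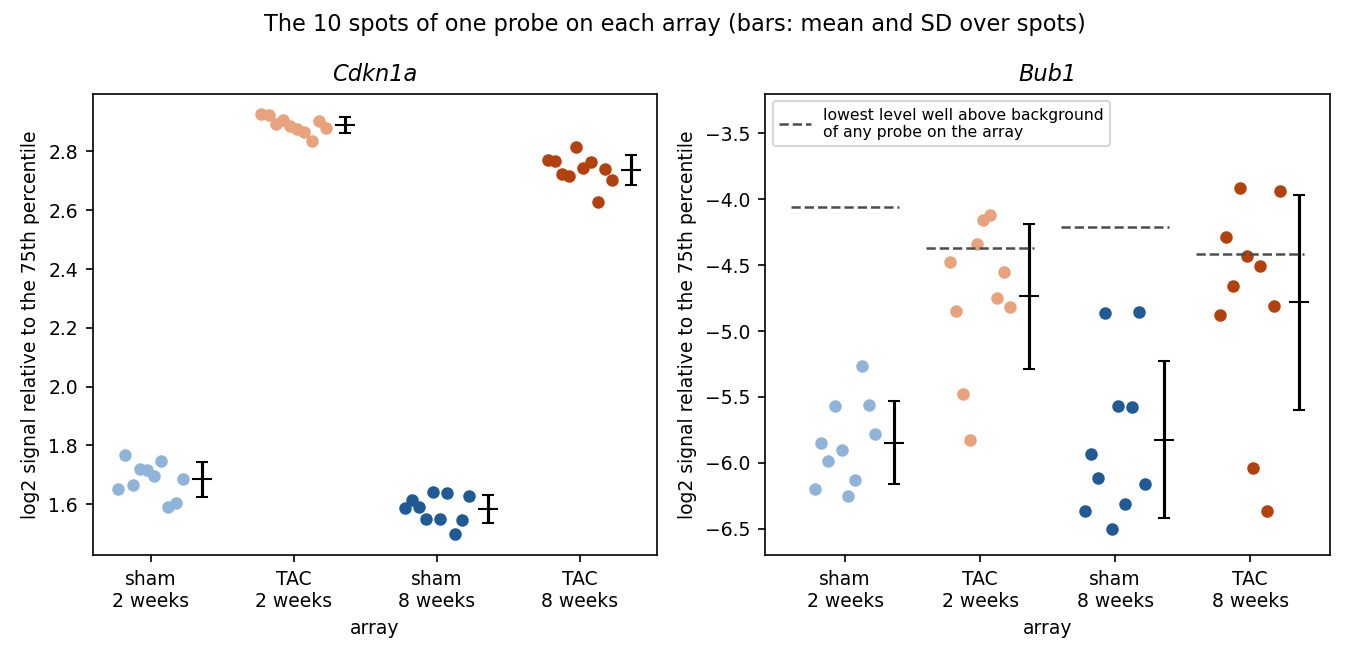
Log2 level of the 10 spots of the Cdkn1a probe (left) and the Bub1 probe (right) on each array, with the mean and SD over spots; the axes differ and do not start at 0. The Cdkn1a spots form tight groups with both TAC arrays above both sham arrays, while the Bub1 spots of sham and TAC arrays overlap and lie around or below the lowest level of any probe well above background (dashed).

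Other genes of the same phases, like the 41 listed by name with earlier results of these data known, gave fewer calls. Over all genes 0.873% were called higher at 2 weeks and 1.76% at 8 weeks, and 0.699% and 1.06% lower. Of 30 other S phase genes 0 were called higher at 2 weeks and 1 at 8 weeks, with medians of 0.15 and 0.11. That 1 gene was E2f1 (levels of 0.236, 0.325, 0.233 and 0.498 in the order sham and TAC at 2 weeks, sham and TAC at 8 weeks), named here after its values were seen. Of 44 other mitosis genes 4 were called higher at 2 weeks and 7 at 8 weeks, with medians of 0.48 and 0.56. Aspm (spindle poles), Cenpe (a kinetochore motor) and Pbk (a mitotic kinase) were called at both times. Aspm was at least 2.41-fold and 2.35-fold above sham and Pbk at least 2.16-fold and 2.46-fold. The 2 called lower at 2 weeks, Kif15 and Cit, were like Cdk1 bright on the sham 2-week array (0.185 and 0.197) with the other 3 arrays between 0.0105 and 0.0708, and the S phase gene Cdc6 was bright on the sham 8-week array (0.350) and at most 0.0579 elsewhere, which gave the only call of a lower level at 8 weeks in these lists. These 3 genes were named after their values were seen. Cenpe, the only one of the 3 called at both times that was measured on all arrays, had levels of 0.224 and 0.596 at 2 weeks and 0.253 and 0.543 at 8 weeks, folds of 2.66 and 2.14. Of 26 other G1 genes and inhibitors 0 and 1 were called higher (Btg2 at 8 weeks, 2.09-fold, also named after its value was seen), and of 10 other p53 targets 0 at either time. The medians of the G1 list were 0.06 and 0.11 and those of the p53 list -0.05 and 0.04, beside the 1.21 and 1.15 of Cdkn1a.

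Markers of the other heart cells differed less uniformly, and few passed 2-fold. All 8 fibroblast markers were higher at 2 weeks and 7 of 8 at 8 weeks, with medians of 0.89 and 0.85, and all were well above background on every array. Their summed level was 208 and 232 in the sham pools and 287 and 339 in the TAC pools. Postn, the matrix protein of activated fibroblasts, was called at both times, at 4.90-fold and 7.59-fold, and Col1a1 at 8 weeks, at 2.30-fold. No macrophage or endothelial marker was called at either time. All 8 macrophage markers were higher at both times, with medians of 0.44 and 0.46 and summed levels of 45.2 and 46.6 in sham and 57.2 and 61.6 in TAC pools. Of 6 endothelial markers 5 were higher at 2 weeks and 3 at 8 weeks, with medians of 0.21 and -0.01 and summed levels from 49.9 to 60.2. Of 8 lymphocyte markers 6 and 5 were higher, with medians of 0.51 and 0.13. Of these 8, 1 was called higher at 2 weeks and 0 at 8 weeks, and 1 was not well above background on any array. Over the 5 measured on all arrays the medians were 0.05 and -0.16, with 3 and 2 higher. Of 7 neutrophil markers 4 and 3 were higher, with medians of 0.01 and -0.02. Among them S100a8 (2.16- and 4.51-fold) and S100a9 (2.31- and 3.99-fold) were called at both times, Camp was lower by log2 differences of -0.46 and -0.42, and 2 were not well above background on any array. Of 6 erythroid markers with a probe 1 and 4 were higher, with medians of -0.31 and 0.07. Of these 6, 1 was called lower at 8 weeks, with a plain log2 difference of -3.48. Between the sham pools 1 was called higher at 8 weeks, with a plain difference of 4.44. Of 8 cardiomyocyte markers 2 and 1 were higher, with medians of -0.17 and -0.18. The part of cell makeup in the differences of the cycle genes was not tested.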

How the data were processed

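Total RNA of whole hearts was labelled with Cy3 and hybridised to 4 SurePrint G3 Mouse GE 8x60K arrays, 1 pool of 4 to 6 mice each. The authors deposited scanner files of Agilent Feature Extraction (10.7.3.1 in the file headers, 9.1 in the submitters' processing notes). Their processed signal is an intensity per spot, background-subtracted and detrended, without scaling between arrays. The deposited series table, used as an alternative, holds intensity values of the same arrays. The probe annotation names build mm9, and none of its coordinates were used.

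Outlier spots were left out, log2 signals were averaged over the spots of a probe, and each array was scaled by the 75th percentile of its 55681 probes other than controls. Of these probes 29502 were named through their transcript accession by RefSeq (GRCm38.p6) and GENCODE tables, giving 21763 genes, each read from its brightest probe. A dim sham or TAC signal was replaced by the higher of itself and the lowest signal well above background on its array. The resulting fold is what is called a lower bound here, and it leaves out the error of the spots. Where the dim signal itself lay above that lowest signal, the bound equals the plain ratio. This was so for Nusap1 at 8 weeks and for Kif23 and Cdkn2a at 2 weeks. A single array limits the precision, so there was no test across genes and no p-value. The members and lists were chosen with earlier results of these data known. Values were given for all S phase, D-type cyclin and inhibitor genes, for mitosis genes called or past 1.5-fold, and, of the other lists, for genes called at both times. Foxm1, Cenpa, Col1a1, Camp and, of the other cycle genes, E2f1, Btg2, Kif15, Cit, Cdc6 and Incenp were added after their values were seen. Of 8 erythroid markers, 2 (Hbb-b1 and Ahsp) had no matched probe.

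The alternatives were quantile normalization, the median in place of the percentile, no scaling, the deposited table, normexp with an offset of 50 (limma 3.58.1, R 4.3.3), other filters on dim probes, outlier spots kept, the mean over probes and thresholds of 1.5- and 3-fold. The percentile over spots and the second brightest probe were added after seeing the data. The counting was tested on simulated data. Motifs were searched on both strands in the RefSeq promoter table, where 33 of the 41 genes had a window. Python 3.11.15, pandas 2.3.3, numpy 2.4.6 and scipy 1.17.1 were used.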

Additional observations from a re-analysis of the deposited data

Results flagged for a closer look

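The difference between TAC and sham pointed one way at 2 weeks and the other way at 8 weeks for 4 genes measured on all arrays. For Cdk1 the 8-week difference exceeded that at 2 weeks by 1.38 on the log2 scale, and its brightest probe was bright on the sham 2-week array. For Cenpa it exceeded it by 0.43, with a difference of -0.10 at 2 weeks and 0.33 at 8 weeks. For Pcna it exceeded it by 0.12, and its differences of -0.03 and 0.09 both lay inside the SD of 0.115 for 1 difference between 2 spots. Tyms ran the other way, with a shift of -0.27 from 0.06 to -0.20. The 2-week differences of Cenpa and Tyms also lay inside that SD. With 1 array in each group these shifts were not tested.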

How the results depend on the processing

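Against 6 genes called higher at 2 weeks, normexp gave 1, the plain ratio without a filter 10, a threshold of 1.5-fold 20 and a threshold of 3-fold 1. Against 18 at 8 weeks, normexp gave 6 and a threshold of 3-fold 3. The other alternatives kept these counts within 1.5 times. The 1 gene called lower at 2 weeks became 0 under normexp, the mean over probes, a threshold of 3-fold and the second brightest probe, and the 0 at 8 weeks became 1 with the plain ratio without a filter. The median of the mitosis genes fell to 0.31 at 2 weeks and 0.39 at 8 weeks under normexp, and stayed above 0 under all 10 alternatives at both times, as did that of the S phase genes (0.03 to 0.09 at 2 weeks, 0.37 to 0.58 at 8 weeks). For Cdk1 at 2 weeks the difference turned from -1.20 to 0.34 with the mean over probes and to 1.36 with the second brightest probe, and at 8 weeks it moved from 0.18 to 1.33 with the mean over probes, 2.23 with the second brightest probe and -0.08 under normexp. Ccnb1 fell to 0.53 and 0.55 under normexp. Cdkn1a ran from 0.62 to 1.23 at 2 weeks and from 0.70 to 1.32 at 8 weeks. The median of all genes lay between -0.10 and 0.08 under every scaling. The normexp offset of 50 stands beside a 75th percentile of 206 to 248, and the cause of the lower counts was not tested. No paired analysis was possible because each group holds 1 array. Signals near background limit 10 of the 28 mitosis genes to bounds or to no level.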
